A study of Mus musculus with 6 samples.

Results

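The stria vascularis is the secretory epithelium on the lateral wall of the cochlear duct. It secretes potassium into the endolymph, the fluid that bathes the hair bundles, and it generates the endocochlear potential that drives current through hair cells. Its marginal cells take potassium up on the basolateral side through the sodium pump and the sodium-potassium-chloride cotransporter Slc12a2, return chloride through channels that need the subunit barttin (Bsnd), and release potassium into the endolymph through the channel made of Kcnq1 and Kcne1. Intermediate cells, which are melanocyte-like, carry the inward rectifier Kcnj10, and basal cells seal the tissue with the tight junction protein Cldn11. In mice the system matures after birth, and loss of Kcnq1, Kcne1, Slc12a2 or Kcnj10 in mice impairs hearing.

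The genes described here are 8 listed by symbol for their part in this system: Kcnq1, Kcne1, Kcnj10, Slc12a2, Bsnd, Atp1b2, Cldn11 and Esrrb. Each matched 1 Ensembl gene ID among the 55769 features of the deposited files. They were followed in RNA-seq of cochleae from mice at postnatal day 3, in 3 libraries of Plscr5 knockout mice (labelled Plscr5-/-) and 3 of wild-type mice. Plscr5 encodes a member of the phospholipid scramblase family, and the design compares the 2 genotypes. The labels do not give the strain, the sex, the altered part of Plscr5 or whether a library came from 1 animal, so the p-values here reflect library-to-library spread alone, which may be technical. One protocol field of the labels speaks of a heterozygous Pou4f3 line, which is no group of the series. Pou4f3 averaged 32.9 ± 2.5 TPM in knockout cochleae and 36.0 ± 2.0 TPM in wild-type cochleae. Libraries were grouped by their labelled genotype.

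Levels are given in TPM, a transcript abundance measure that corrects for gene length and thereby lets levels of different genes be compared. TPM keeps no read depth, so counting error is unknown here. Errors are SD over 3 libraries, and values by library are given in the order of replicates 1, 2 and 3. A log2 fold change is the mean of log2(TPM + 1) in knockout cochleae less that in wild-type ones, a scale that understates the change of low genes. Genotype was tested with limma on the 17097 features that reached 1 TPM in 3 or more libraries, with Benjamini-Hochberg adjustment over all of them at a threshold of 0.05.

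Plscr5 itself stood at 4.30, 3.69 and 5.01 TPM in knockout cochleae, against 14.53, 12.42 and 9.27 TPM in wild-type cochleae. The groups did not overlap, and the lower group was the one labelled knockout. Its log2 fold change was -1.28 (SE 0.18), with a limma adjusted p of 0.29. Wild type replicate 3 stood apart in nerve genes. Over 10 Schwann cell and satellite glia genes, the summed level lay between 1856 and 2746 TPM in knockout cochleae, and between 799 and 1904 TPM in wild-type cochleae. The highest sum was that of knockout replicate 1 and the lowest that of wild type replicate 3. Over 10 neuronal genes the sums lay between 665 and 891 TPM in knockout cochleae and between 262 and 714 TPM in wild-type cochleae.

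Markers of the strial cell types were checked first. Among marginal cell genes other than the 8, the endocytic receptor gene Lrp2 averaged 28.4 ± 1.2 TPM in knockout cochleae and 32.2 ± 3.1 TPM in wild-type cochleae, and the transcription factor gene Lmx1a averaged 11.0 ± 2.5 TPM in knockout cochleae and 11.3 ± 2.8 TPM in wild-type ones. The melanocyte genes Dct and Pmel, which mark intermediate cells, averaged 6.64 ± 0.44 and 7.37 ± 0.81 TPM in knockout cochleae, against 5.97 ± 1.84 and 6.60 ± 1.26 TPM in wild-type cochleae. Tyr and Tyrp1, further pigment enzyme genes, stayed below 1 TPM in all 6 libraries. Mlana, another melanocyte gene, was listed at 0 in knockout replicate 3 and reached at most 0.72 TPM. Lrp2, Lmx1a, Dct and Pmel were thus present in every library, while Tyr, Tyrp1 and Mlana stood near the bottom of the scale. Because these are bulk samples, fewer cells of a type and less RNA per cell cannot be told apart.

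Promoter sequences are shown for 3 of the 8 genes, in 4 windows from RefSeq on GRCm38.p6. Each has 250 bases before and 50 after a transcription start. The windows shown were picked by gene symbol and not by expression pattern. The other genes, Slc12a2 among them, are not shown, so their promoters are not described. All are on the plus strand, and the bases run 5′ to 3′. Capitals mark matches, on either strand, to the CCAAT box (CCAAT) and the GC box (GGGCGG), both general promoter elements.
Kcnj10, chr1:172340960-172341259: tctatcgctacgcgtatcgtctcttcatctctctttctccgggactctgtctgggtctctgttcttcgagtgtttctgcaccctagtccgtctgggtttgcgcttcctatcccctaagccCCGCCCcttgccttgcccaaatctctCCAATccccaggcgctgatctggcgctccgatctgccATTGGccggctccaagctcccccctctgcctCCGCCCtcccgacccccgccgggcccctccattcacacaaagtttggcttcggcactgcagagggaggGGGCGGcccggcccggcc
Cldn11, chr3:31149670-31149969: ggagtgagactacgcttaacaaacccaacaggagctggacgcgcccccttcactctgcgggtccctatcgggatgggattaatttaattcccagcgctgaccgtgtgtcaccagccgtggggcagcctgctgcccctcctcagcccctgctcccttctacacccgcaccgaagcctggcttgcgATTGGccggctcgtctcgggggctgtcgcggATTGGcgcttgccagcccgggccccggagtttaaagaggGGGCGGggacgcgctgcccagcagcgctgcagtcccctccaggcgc
Esrrb, first start, chr12:86360867-86361166: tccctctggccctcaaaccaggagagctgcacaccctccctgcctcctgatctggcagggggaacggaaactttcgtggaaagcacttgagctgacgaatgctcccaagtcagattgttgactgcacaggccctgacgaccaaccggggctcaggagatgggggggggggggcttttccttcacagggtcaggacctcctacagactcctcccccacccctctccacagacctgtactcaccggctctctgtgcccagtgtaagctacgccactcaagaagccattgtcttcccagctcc
Esrrb, second start, chr12:86421394-86421693: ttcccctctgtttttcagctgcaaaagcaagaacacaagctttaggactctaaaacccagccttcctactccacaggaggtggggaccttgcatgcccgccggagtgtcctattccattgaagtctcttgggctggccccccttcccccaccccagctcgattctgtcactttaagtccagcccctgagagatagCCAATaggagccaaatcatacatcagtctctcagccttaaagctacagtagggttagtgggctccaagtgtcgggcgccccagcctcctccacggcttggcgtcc

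The Kcnj10 window held 2 CCAAT boxes and 3 GC boxes. One CCAAT box lay on the minus strand with its first plus-strand base 67 bases before the start. The Cldn11 window held 2 CCAAT boxes on the minus strand, 66 and 35 bases before the start, and 1 GC box. The first Esrrb window held neither element, and the second held 1 CCAAT box, 55 bases before the start. Among 32851 promoter windows of this length, 37.4% held CCAAT and 35.7% held GGGCGG. Esrrb encodes an oestrogen-related receptor, whose family binds TNAAGGTCA. That motif was in none of the 4 windows on either strand, against 1.28% of all windows. A match is a description of the letters only, and the motifs were chosen after expression values were seen.

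The 8 genes spanned a wide range of levels, and their order was much the same in both genotypes. Over all 6 libraries Slc12a2 averaged 117 TPM, Atp1b2 101 TPM, Cldn11 52.6 TPM, Kcnj10 25.2 TPM, Kcnq1 5.27 TPM, Esrrb 1.39 TPM, Kcne1 1.25 TPM and Bsnd 0.107 TPM. Genes for uptake and for the basal seal were thus far above those for the apical potassium channel and the chloride channel subunit. These are levels of bulk cochlear RNA, so they do not give the levels within marginal or basal cells. Slc12a2 lay above Atp1b2 in 6 of 6 libraries, although their ranges overlapped. Esrrb and Kcne1 could not be ordered, with Esrrb above Kcne1 in 4 of 6 libraries. For the other 5 pairs of neighbours the ranges did not overlap. By mean level, 94.9% of annotated protein-coding genes lay below Slc12a2, against 46.1% below Kcnq1 and 24.8% below Bsnd.

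**Figure D1:**
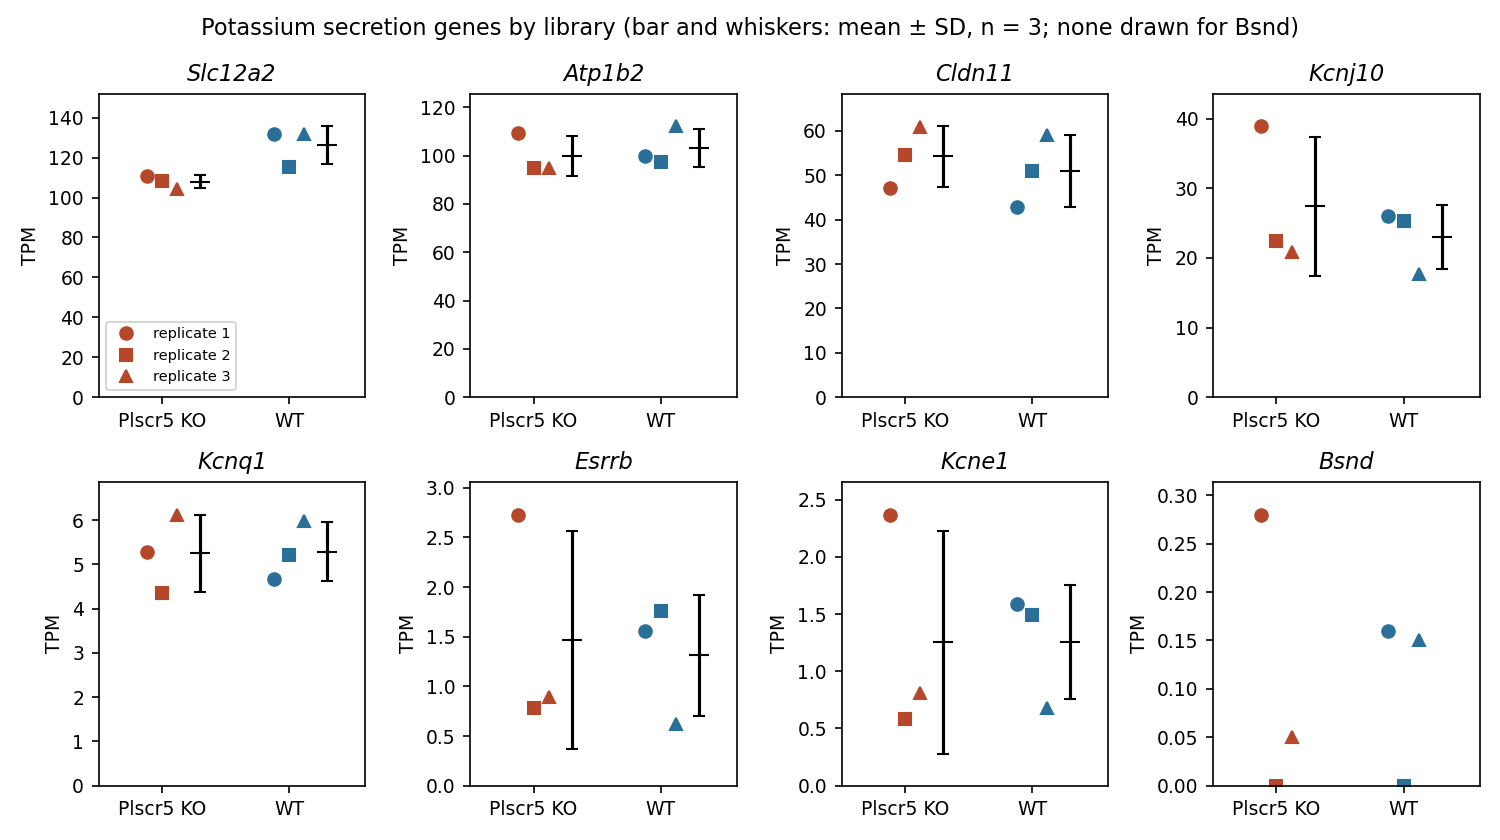
Level in TPM (vertical axes, linear from 0) of the 8 genes in 3 Plscr5 knockout libraries (left, red) and 3 wild-type libraries (right, blue). Symbols give the replicate number, and the mean ± SD stands beside the points except for Bsnd, where none is drawn. Slc12a2 is the 1 gene whose knockout points (104.47 to 110.82 TPM) all lie below the wild-type points (115.17 to 131.95 TPM), and knockout replicate 1 is highest for Kcnj10, Esrrb, Kcne1 and Bsnd.

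Bsnd was below the filter on low values and was not tested. Of the 7 genes that were tested, 0 passed the threshold across all features, against 2 of 17097 features in all (0.0117%). At an unadjusted p under 0.05 the count was 1 of 7, Slc12a2, against 4.0% of all features in either direction and 1.85% lower in knockout cochleae. Of the 7, 3 had a log2 fold change above 0 and 4 below it, counts that change places with median centring, where Kcnq1 turns to 0.0037. Their median was -0.01, as it was over all features (-0.01). Groups did not overlap at 1 of the 7, against 9.33% of all features.

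Uptake genes came first in level. Slc12a2, the cotransporter NKCC1 that loads marginal cells with potassium, stood at 110.82, 108.36 and 104.47 TPM in knockout cochleae, against 131.62, 115.17 and 131.95 TPM in wild-type cochleae. The highest knockout library was lower than the lowest wild-type library, as for 4.74% of features. The mean was 108 ± 3 TPM in knockout cochleae and 126 ± 10 TPM in wild-type cochleae, so that the knockout stood at 85.5% of the wild-type level. Its log2 fold change was -0.22 (SE 0.08, 95% confidence interval -0.40 to -0.05). The limma p was 0.0191 before adjustment and 0.989 after it. The threshold was not reached. By exact permutation of the 6 libraries the two-sided p was 0.1, and no smaller p is possible with 3 against 3. Estimates lay between -0.29 and -0.19 whichever library was left out, and was -0.21 without knockout replicate 1 and wild type replicate 3.

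Atp1b2, a beta subunit of the sodium pump that glia also express, stood at 109.36, 94.99 and 94.88 TPM in knockout cochleae, against 100.06, 97.27 and 112.27 TPM in wild-type cochleae. The groups overlapped, with the highest value in a wild-type library and the next in a knockout library. On the log2 scale the fold change was -0.05 (95% confidence interval -0.25 to 0.15, limma adjusted p = 0.99), so the interval runs from 0.839-fold to 1.11-fold. Among the 3 beta subunit genes measured, Atp1b2 made up 18.2% ± 0.9 of the summed TPM in knockout cochleae and 19.3% ± 2.0 in wild-type cochleae. Atp1b1 was the main one, at 63.6% ± 0.4 in knockout and 63.9% ± 1.7 in wild-type libraries. The ratio of Atp1b2 to Atp1b1 averaged 0.286 ± 0.015 in knockout cochleae and 0.302 ± 0.039 in wild-type cochleae (two-sided exact permutation p = 0.7, adjusted p = 1 over the 3 ratios tested).

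The gene for the chloride channel subunit was at the bottom of the scale. Bsnd, which encodes barttin, a subunit that chloride channels of these cells need, was listed at 0.28, 0 and 0.05 TPM in knockout cochleae, against 0.16, 0 and 0.15 TPM in wild-type cochleae. It was listed at 0 in 1 library of each genotype and did not pass the filter, so it was not tested. A listed 0 need not mean absence, as 7 protein-coding genes off the Y chromosome had a 0 in 1 library or more and over 10 TPM in another.

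The apical potassium channel showed low and unequal levels of its subunits. Kcnq1, the pore-forming subunit, stood at 5.28, 4.35 and 6.11 TPM in knockout cochleae, against 4.66, 5.21 and 5.99 TPM in wild-type cochleae. The groups overlapped throughout, and the log2 fold change was -0.01, or 0.0037 with median centring (main estimate: 95% confidence interval -0.39 to 0.36, limma adjusted p = 0.998). The antisense gene Kcnq1ot1 shares 121 exon bases with Kcnq1 in GENCODE M21, and it lay between 0.82 and 1.26 TPM in knockout cochleae and between 1.03 and 1.62 TPM in wild-type cochleae. Whether counting used strand is not given in the sources used here, so reads of this pair may not be told apart.

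Kcne1, the accessory subunit that slows the channel, stood at 2.37, 0.58 and 0.81 TPM in knockout cochleae, against 1.59, 1.49 and 0.68 TPM in wild-type cochleae. Knockout replicate 1 was highest and knockout replicate 2 lowest, so the knockout values enclosed all wild-type values. The mean was 1.25 ± 0.97 TPM in knockout cochleae and 1.25 ± 0.50 TPM in wild-type cochleae. Between genotypes the log2 fold change was -0.06 (95% confidence interval -0.81 to 0.70, limma adjusted p = 0.998). With a pseudocount of 0.1 in place of 1 it was -0.15 with an SE of 0.58, against an SE of 0.33, so at this low level the precision depends on the pseudocount. The highest library was 4.09 times the lowest for Kcne1, against 1.40 times for Kcnq1. The ratio of Kcne1 to Kcnq1 was 0.449, 0.133 and 0.133 in knockout cochleae, against 0.341, 0.286 and 0.114 in wild-type cochleae, with no difference by genotype detected (two-sided exact permutation p = 1, adjusted p = 1 over the 3 ratios).

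Kcne1 was not the main member of its subunit family in these cochlear libraries. Of the summed TPM of Kcne1 to Kcne5, Kcne1 made up 28.3%, 7.82% and 10.5% in knockout cochleae, against 13.2%, 16.9% and 6.95% in wild-type cochleae. Kcne5, an accessory subunit gene on the X chromosome, made up 33.3% ± 4.7 in knockout cochleae and 32.3% ± 9.5 in wild-type cochleae. The groups overlapped for all 5 genes in level. Kcne3 averaged 1.67 ± 0.82 TPM in knockout cochleae and 3.02 ± 1.6 TPM in wild-type cochleae (log2 fold change -0.56, SE 0.33, limma adjusted p = 0.989), a difference that did not pass. At these levels most of the spread lies within genotypes.

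**Figure D2:**
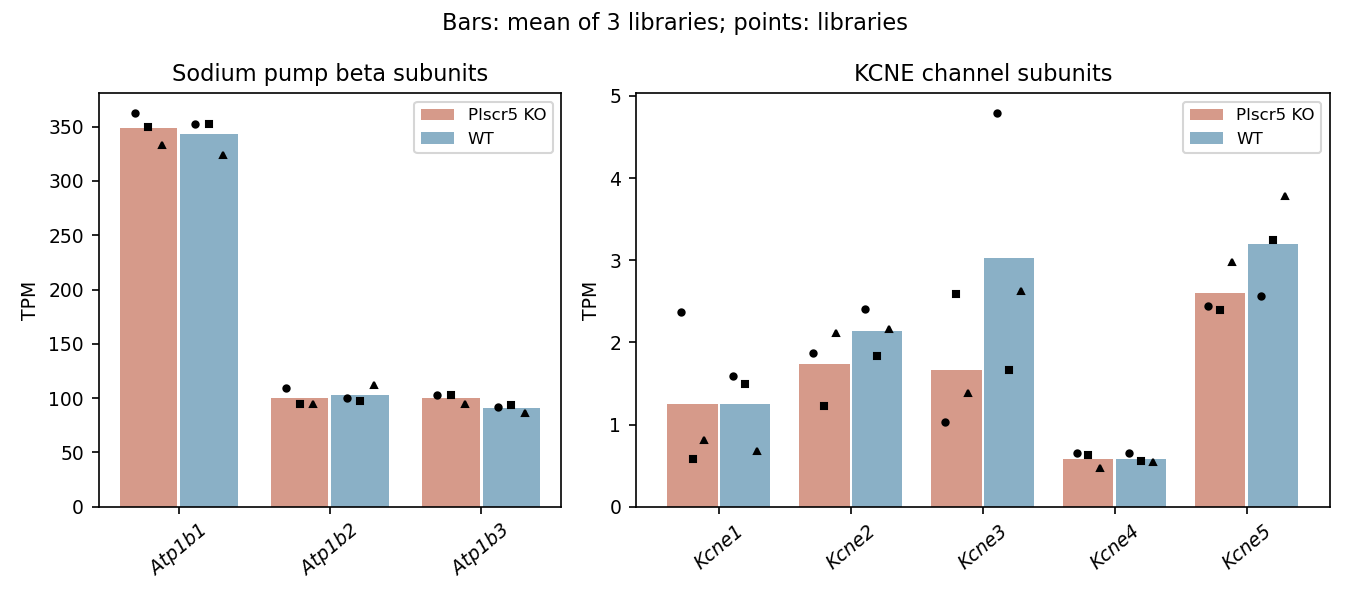
Level in TPM (vertical axes, linear from 0) of the sodium pump beta subunit genes (left panel) and the KCNE accessory subunit genes (right panel); bars are means of 3 libraries for the Plscr5 knockout (red) and the wild type (blue), and points are libraries, with a circle, a square and a triangle for replicates 1, 2 and 3. Atp1b2 stands near 100 TPM, well under Atp1b1, and Kcne1 reaches its highest value, 2.37 TPM, in knockout replicate 1.

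Esrrb, the nuclear receptor that marginal cells need in mice, followed Kcne1 from library to library. It stood at 2.73, 0.78 and 0.89 TPM in knockout cochleae, against 1.56, 1.76 and 0.62 TPM in wild-type cochleae. As for Kcne1, knockout replicate 1 was highest, wild type replicates 1 and 2 came next, and the other 3 libraries were below 1 TPM. Esrrb had a log2 fold change of 0.04 (95% confidence interval -0.75 to 0.84, limma adjusted p = 0.998). The profiles of Esrrb and Kcne1 over the 6 libraries, centred on their means, differed by 0.09 in log2(TPM + 1) as a root mean square. By this measure Kcne1 was the nearest of 17096 other features to Esrrb, and Esrrb ranked 4 of 17096 for Kcne1. Kcnj10, a gene of intermediate cells and glia, ranked 16 for Esrrb and 87 for Kcne1. This comparison was chosen after the values were seen. It rests on 6 libraries and, for Esrrb and Kcne1, on levels near 1 TPM, and it is a description. Esrra and Esrrg, the related receptors, were higher than Esrrb, at 14.9 ± 3.4 and 12.5 ± 1.4 TPM in knockout cochleae and 14.8 ± 0.8 and 8.56 ± 5.12 TPM in wild-type cochleae. Esrrg was lowest, at 2.68 TPM, in wild type replicate 3, the library with the lowest nerve gene levels.

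Kcnj10, the Kir4.1 channel of intermediate cells that glia of the spiral ganglion also express, stood at 38.95, 22.46 and 20.85 TPM in knockout cochleae, against 25.99, 25.36 and 17.72 TPM in wild-type cochleae. The groups overlapped, and the highest knockout value lay apart from the other 5. The mean was 27.4 ± 10.018 TPM in knockout cochleae and 23.0 ± 4.6 TPM in wild-type cochleae, and the log2 fold change was 0.21 (SE 0.25, 95% confidence interval -0.39 to 0.81, limma adjusted p = 0.989). The sign was not stable. Without knockout replicate 1 the log2 fold change was -0.07, and without that library and wild type replicate 3 it was -0.24. These were also the libraries with the highest and the lowest summed level of the glial genes. Of 10 Schwann cell and satellite glia genes, 0 passed the threshold, against 0.0117% of all features, and none was listed at 0. Of the 10, 9 had a log2 fold change above 0 (median 0.80). That median was 0.27 without wild type replicate 3, and 0.07 without it and knockout replicate 1. Their part in the Kcnj10 values was not tested. Kcnj16, which encodes a channel subunit that pairs with Kir4.1, averaged 5.47 ± 0.71 TPM in knockout cochleae and 5.86 ± 0.55 TPM in wild-type cochleae.

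Cldn11, the basal cell tight junction gene that oligodendrocytes also express, stood at 47.25, 54.57 and 60.95 TPM in knockout cochleae, against 42.89, 50.94 and 59.18 TPM in wild-type cochleae. In each genotype replicate 1 was lowest and replicate 3 highest, and the groups overlapped. The log2 fold change was 0.09 (95% confidence interval -0.22 to 0.41, limma adjusted p = 0.989). Oligodendrocyte markers were near 0: the 6 genes Mog, Mobp, Olig1, Olig2, Opalin and Ermn summed to between 0.44 and 0.84 TPM in knockout cochleae and between 0.19 and 0.40 TPM in wild-type cochleae. All of these but Ermn were listed at 0 in at least 1 library. The ratio of Cldn11 to Kcnj10 was 1.21, 2.43 and 2.92 in knockout cochleae, against 1.65, 2.01 and 3.34 in wild-type cochleae, with no difference by genotype detected (two-sided exact permutation p = 0.9, adjusted p = 1 over the 3 ratios).

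The genes thus fell into unlike patterns over the libraries. Relative to its mean, knockout replicate 1 was higher by 0.64 for Kcne1, 0.70 for Esrrb and 0.65 for Kcnj10 on the log2(TPM + 1) scale. In that library Atp1b2 deviated by 0.11, Kcnq1 by 0.01, Slc12a2 by -0.07 and Cldn11 by -0.14. In wild type replicate 3 Kcne1, Esrrb and Kcnj10 deviated by -0.37, -0.50 and -0.44, while the other 4 tested genes deviated by 0.15 to 0.18. The 8 other marginal cell genes had a median deviation of -0.06 in knockout replicate 1 and 0.16 in wild type replicate 3. They were not uniform, and Heyl, a Notch-responsive transcription factor gene, was highest in knockout replicate 1, at 29.59 TPM. Schwann cell and satellite glia genes had medians of 0.73 in knockout replicate 1 and -1.47 in wild type replicate 3. In the same 2 libraries the neuron list had 0.57 and -1.38, cell division 0.37 and -0.70, and osteoblast 0.27 and -0.22. The basal cell list had -0.02 and 0.20, and the fibrocyte list -0.04 and 0.15. The part of any of these lists in the pattern of Kcne1 and Esrrb was not tested.

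**Figure D3:**
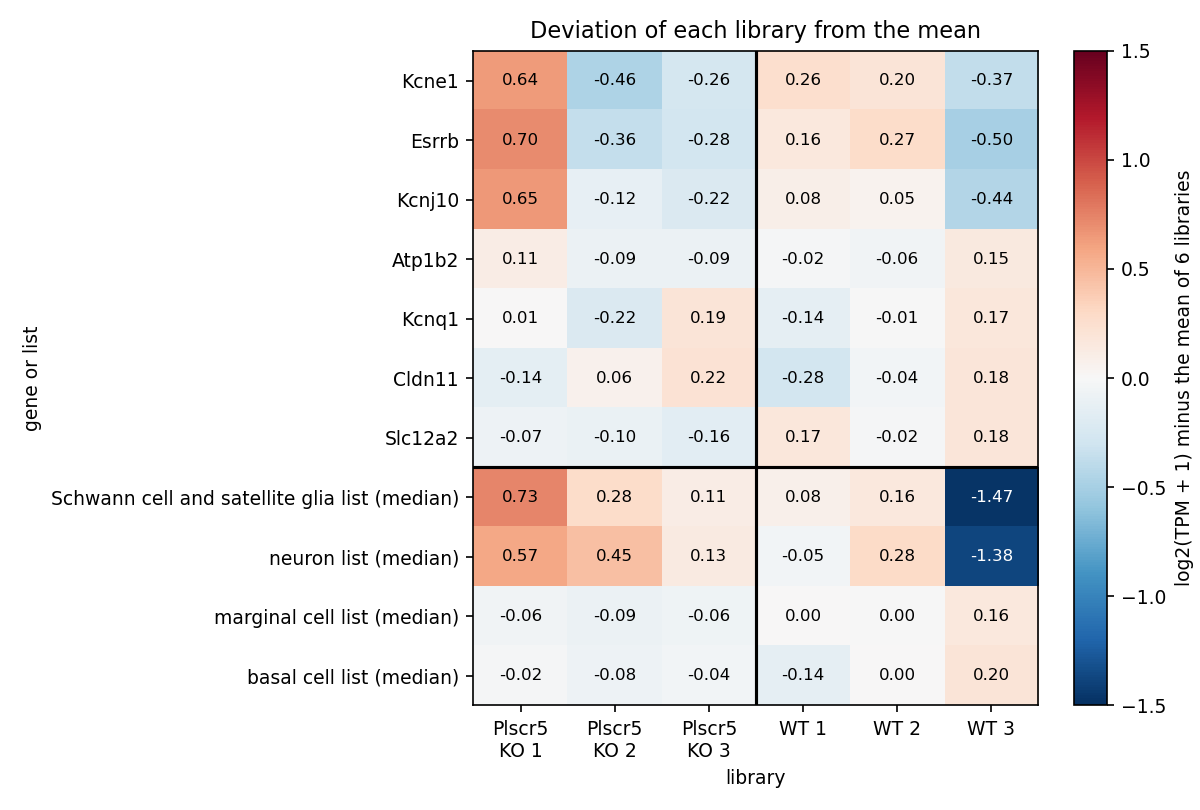
Deviation of log2(TPM + 1) from the mean of the 6 libraries, in colour and as a number, for the 7 tested genes (rows above the line) and the medians of 4 marker lists (rows below), with 3 Plscr5 knockout libraries left of the vertical line and 3 wild-type libraries right of it. Kcne1, Esrrb and Kcnj10 are highest in knockout replicate 1 (0.64 to 0.70), where Cldn11 and Slc12a2 lie below 0, and the glial list falls to -1.47 in wild type replicate 3.

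By a rule on likeness, the 5 protein-coding genes with a mean of at least 5 TPM nearest to the mean profile of the 7 tested genes were Gabarapl2, Trmt44, Herc2, Proca1 and Myh9. Their root mean square differences from it were 0.02 to 0.03 in log2(TPM + 1) over 6 libraries, among 11899 candidates. The mean profile itself deviated from 0 by only 0.15 as a root mean square.

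The wider potassium secretion machinery was given by 21 partner genes, of which 20 were tested and 0 passed in either direction. The share passing over all features was 0.0117%. Of the 20, 7 lay above 0 and 13 below it on the log2 scale, the median being -0.09 and that of all features -0.01. Without wild type replicate 3 the partner median was -0.04, and with median centring 12 of the 20 lay below 0. Groups did not overlap at 2 of the 20, against 9.33% of all features. Atp1b3, a beta subunit gene, lay above in all knockout libraries, at 102.54, 103.34 and 94.98 TPM, against 91.49, 93.55 and 86.55 TPM in wild-type cochleae (log2 fold change 0.15, SE 0.07, limma adjusted p = 0.989). It did not pass the threshold.

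No difference was detected in the kinases that act on Slc12a2. Wnk1 averaged 186 ± 38 TPM in knockout cochleae and 201 ± 16 TPM in wild-type cochleae, and Wnk4 20.5 ± 2.3 TPM in knockout and 21.9 ± 2.7 TPM in wild-type libraries. Stk39 averaged 53.6 ± 1.2 TPM in knockout and 50.5 ± 3.8 TPM in wild-type libraries, and Oxsr1 30.1 ± 3.6 TPM in knockout and 31.7 ± 2.9 TPM in wild-type libraries. The potassium-chloride cotransporter gene Slc12a7 had a log2 fold change of 0.06, the channel subunit gene Kcne2 had -0.21, and Hif1a, a hypoxia-responsive transcription factor gene, had -0.14.

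**Figure D4:**
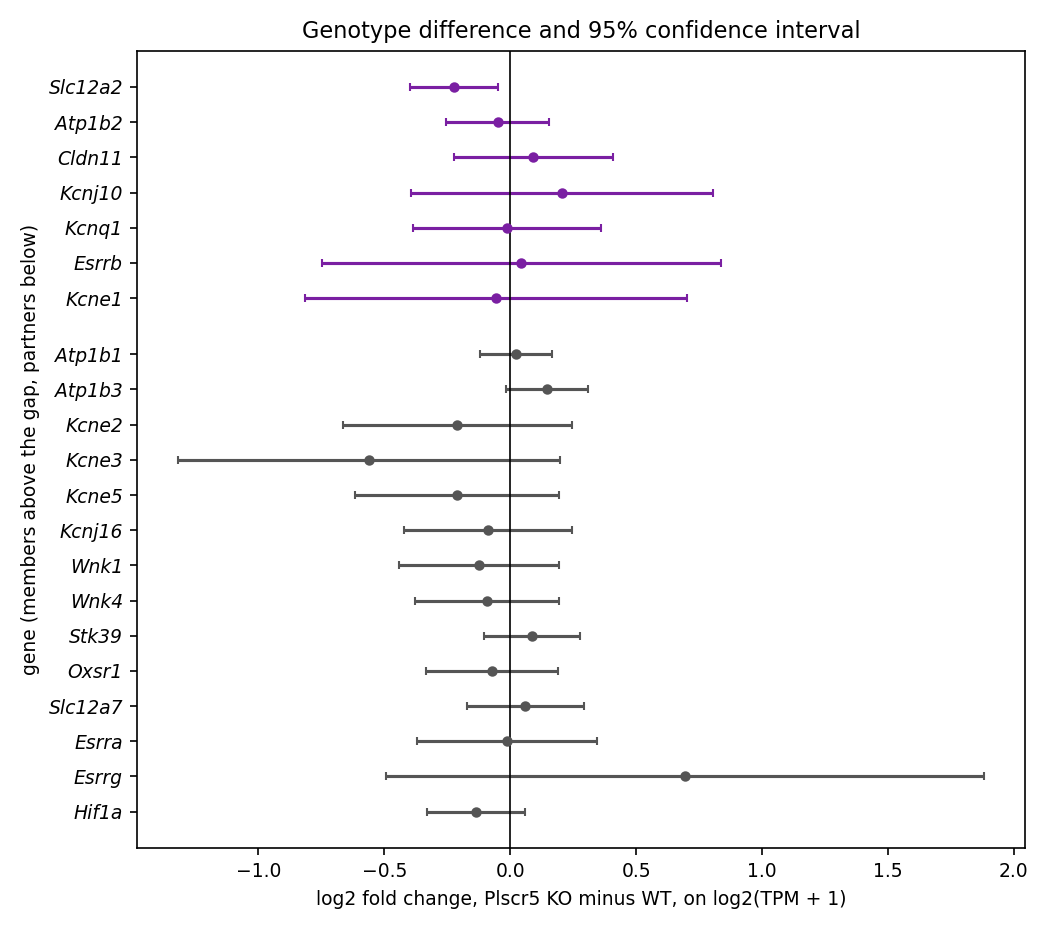
Difference in mean log2(TPM + 1), Plscr5 knockout minus wild type (horizontal axis), with its 95% confidence interval from limma, for the 7 tested genes (purple, above the gap) and the partner genes named in the text (grey, below). The interval of Slc12a2 (-0.40 to -0.05) is the 1 that lies wholly on one side of 0, and no gene passed after adjustment over all features.

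Other genes of the strial cell types were likewise not called. Of 8 marginal cell genes, 3 of them also in the partner list, 0 passed, against 0.0117% of all features. At that share, a count of 0 in a short list says little about its genes. The log2 fold change was below 0 for all 8 marginal cell genes (median -0.13), and for 53.4% of all features. Among lists of other cell types, medians were above 0 for fibrocytes (0.003), endothelial cells (0.04), macrophages (0.05) and osteoblasts (0.26). They were also above 0 for cell division (0.35), Schwann cells and satellite glia (0.80) and neurons (0.82). As for marginal cells, 6 of 6 supporting cell genes lay below 0 (median -0.12), as did 6 of 8 hair cell genes (median -0.13). So did 5 of 5 tested red blood cell genes (median -0.47). For the marginal cell genes the count was 5 of 8 and the median -0.05 without wild type replicate 3, and 6 of 8 and -0.14 without knockout replicate 1. The supporting cell median was -0.06 without wild type replicate 3. Of 6 basal cell genes 0 passed and 5 were negative (median -0.07), which became 3 of 6 and a median of 0.03 without wild type replicate 3. Gjb2 is a gap junction gene that fibrocytes and supporting cells also express. It averaged 234 ± 5 TPM in knockout cochleae and 263 ± 28 TPM in wild-type cochleae, with no overlap. Groups without overlap occurred at 9.33% of all features, in either direction. The log2 fold change of Gjb2 was -0.16 (limma adjusted p = 0.989), and lay between -0.22 and -0.08 whichever library was left out. Of 6 tested intermediate cell and melanocyte genes 0 passed and 3 were negative (median -0.02). Of 3 spindle and root cell genes 0 passed, all 3 were negative and the median was -0.13. Without wild type replicate 3, 2 of those 3 were negative.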

How the data were processed

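Total RNA of cochleae was sequenced in 6 libraries. The deposited values are TPM, judged from the values themselves: a library sums to 999999 to 1000000, with 2 decimals. The submitters' processing notes list the genome build mm8 with no role; aligner, quantifier and annotation: not given in the sources used here. No 2 libraries had identical values.

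Symbols came from a reference list of gene names, which named 52083 IDs, and Kcne5 was matched by its older name. Gene types, positions and exons came from GENCODE M21 (GRCm38). On log2(TPM + 1) values limma 3.58.1 (R 4.3.3) was fitted with genotype as the one term, with trended and robust variance moderation. Ratios and single genes were tested with two-sided exact permutation tests (scipy 1.17.1). The fit was tested on simulated data. The genes named were the 8 listed, partner genes past the filter (some are counted but not reported here by name), up to 4 of each marker list and 5 by likeness. Kcne4, Lmx1a, Dct, Tyr, Tyrp1, Mlana, Ermn and Kcnq1ot1 were named in addition, after their values were seen. Alternatives were other pseudocounts, filters and scalings, no variance trend, a replicate block and left-out libraries. The members and lists were chosen with earlier results of these data known. Of 17 lists, those for hair cells, supporting cells, fibrocytes, blood, macrophages, vessels, bone and cell division had 0 genes past the threshold. Over all features the share past it was 0.0117%.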

Additional observations from a re-analysis of the deposited data

How the results depend on the processing

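Of 88 checks on the log2 fold changes of the 7 tested genes, 77 kept their sign, 0 gained a call and 11 changed sign. Kcnq1 became 0.0037 with median centring, 0.093 without knockout replicate 2, 0.07 without wild type replicate 3, and 0.06 without knockout replicate 1 and wild type replicate 3, a setting chosen after seeing the data. Kcnj10 became -0.07 without knockout replicate 1 and -0.24 without both libraries, Kcne1 0.16 and 0.06 without knockout replicates 2 and 3, Cldn11 -0.024 without wild type replicate 1, and Atp1b2 0.012 and Esrrb -0.19 without wild type replicate 3. Without knockout replicate 1 or wild type replicate 1 or 2, Kcne1 and Esrrb fell below the filter and gave no value. Leaving out single libraries moved Kcnq1 from -0.112 to 0.093, Atp1b2 from -0.116 to 0.012, Cldn11 from -0.024 to 0.20, Kcne1 from -0.25 to 0.16, Esrrb from -0.19 to 0.24, Kcnj10 from -0.07 to 0.37 and the median of the tested genes from -0.07 to 0.09. The low end of that median, without wild type replicate 1, rests on the 5 genes that still gave a value. Without both libraries Cldn11 was at 0.297. The log2 ratio differences ranged from -0.75 to 0.15 (Kcne1 to Kcnq1, -1.23 without both libraries), -0.14 to 0.029 (Atp1b2 to Atp1b1) and -0.38 to 0.26 (Cldn11 to Kcnj10, 0.55 without both libraries). Over all features 2 were called. There were 0 calls with no filter (1016 at an unadjusted p under 0.05), with no variance trend (695), with the replicate block (1250) and without both libraries (1937), 1 with median centring and 1 without mitochondrial and haemoglobin genes, and 0 to 3 when single libraries were left out (354 to 1046). Deviations of same-numbered libraries correlated at 0.188, -0.055 and 0.242 across features, and the numbers were not taken as pairs. Of features above 0 in both libraries, 2.41% had equal values in knockout and wild type replicates 1. The share was 2.81% for replicates 2 and 0.97% for replicates 3, and at most 1.29% between libraries with unlike numbers. Whether same-numbered libraries belong together is thus not known. With the replicate block Slc12a2 was at -0.22 (limma adjusted p = 0.663), and the signs of the 7 genes were as without it. Causes were not tested. Median centring moved the median of all features to 0.006. The depth behind the values of Bsnd, Kcne1 and Esrrb is unknown.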
